A study of Mus musculus with 36 samples.

Results

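The genes described here are 30 genes of cholesterol synthesis and of the sterol-responsive lipid programme, chosen by name from a written list. All 30 were found once in each of 3 deposited tables of mouse RNA-sequencing values, which hold 56026 (bone marrow populations), 56575 (B16-F10 tumours) and 57252 (MC38 tumours) gene models. By role they are 18 enzymes of the mevalonate and sterol synthesis pathway, 4 genes of the SREBP system, 4 sterol-responsive lipid genes, and 4 genes of cholesterol efflux and the liver X receptor (LXR). The study sequenced messenger RNA from wild-type mice (genotype WT) that had received OMV-SIRP, OMV-SIRP-G or, as the control, phosphate-buffered saline (PBS); its title describes engineered outer membrane vesicles, particles shed by bacteria, and the labels do not spell the agent names out further. There are 3 libraries for each treatment in each of 4 populations, which makes 12 groups and 36 libraries. From bone marrow came GMP, the granulocyte-macrophage progenitors, and monocytes; B16-F10 melanomas gave one set of tumour-associated macrophages (B16 TAM) and MC38 colon carcinomas the other (MC38 TAM). The design text speaks of samples pooled within a group, and no label ties the 3 libraries to separate mice, so a p-value here reflects the spread among libraries alone, and that spread may be technical. The labels give no age, dose or time.

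Cells make cholesterol from acetyl-CoA through mevalonate, squalene and lanosterol. When sterols in the endoplasmic reticulum are low, SCAP escorts SREBP proteins to the Golgi, where they are cut free to enter the nucleus and switch on the enzymes of this path; when sterols are high, INSIG proteins hold SCAP and SREBP back. The opposite arm is run by LXR, a nuclear receptor that senses oxysterols and switches on exporters such as ABCA1 and ABCG1, and MYLIP, a ubiquitin ligase that degrades lipoprotein receptors. In macrophages, which take up the membranes of dying cells and lipoproteins, LXR-driven efflux is known as a main route by which the cholesterol leaves again.

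Promoter sequences of members on which the results below turn are printed first, so that the synthesis and efflux arms can be compared. The RefSeq promoter table (GRCm38.p6) matched 23 of the 30 members. The window searched was the 250 bases before the annotated start site, and the 4 windows printed hold no exon base of their gene in the deposited gene models. Searched on both strands were CACNCCAC, the core of the sterol regulatory element to which SREBP binds, and CCAAT, the box bound by NF-Y, a partner of SREBP; the longer sterol regulatory element, which contains the core, and an LXR element, a direct repeat, were searched as well. Capitals mark matches, and ATTGG is CCAAT read on the other strand. Hmgcs1 (chr13:119690101-119690350, + strand) and Mvd (chr8:122443423-122443672, - strand) are shown as synthesis enzymes, Fasn (chr11:120824548-120824797, - strand) as a lipid gene, and Abca1 (chr4:53159896-53160145, - strand) as an efflux gene.
Hmgcs1: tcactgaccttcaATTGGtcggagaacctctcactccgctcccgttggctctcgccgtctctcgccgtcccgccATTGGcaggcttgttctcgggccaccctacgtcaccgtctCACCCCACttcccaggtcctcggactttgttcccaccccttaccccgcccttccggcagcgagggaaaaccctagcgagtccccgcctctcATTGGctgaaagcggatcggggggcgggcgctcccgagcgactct
Mvd: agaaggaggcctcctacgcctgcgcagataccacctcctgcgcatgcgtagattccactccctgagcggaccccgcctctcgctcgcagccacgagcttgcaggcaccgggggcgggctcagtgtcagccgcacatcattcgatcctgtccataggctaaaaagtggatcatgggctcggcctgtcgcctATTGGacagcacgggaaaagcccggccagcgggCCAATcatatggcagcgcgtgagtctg
Fasn: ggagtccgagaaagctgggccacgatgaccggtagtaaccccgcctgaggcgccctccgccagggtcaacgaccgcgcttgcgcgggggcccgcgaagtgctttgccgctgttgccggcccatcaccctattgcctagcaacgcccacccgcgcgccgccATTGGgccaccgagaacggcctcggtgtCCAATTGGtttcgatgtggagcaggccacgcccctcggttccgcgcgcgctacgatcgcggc
Abca1: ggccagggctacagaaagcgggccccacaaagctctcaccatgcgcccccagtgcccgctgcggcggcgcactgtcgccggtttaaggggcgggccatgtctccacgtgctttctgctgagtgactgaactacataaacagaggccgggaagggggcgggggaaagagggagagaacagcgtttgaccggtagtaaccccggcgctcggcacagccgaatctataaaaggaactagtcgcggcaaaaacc

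The CCAAT box lay in a window of 14 of the 15 enzyme genes with an entry. Counted the same way, by gene and over any of its entries, it lay in 38.4% of the 20704 genes of the table matched by symbol to the deposited gene models (of the table's 32851 single promoters, 33.8% held it). In 5 of the 14 (Idi1, Cyp51, Tm7sf2, Msmo1 and Dhcr7) every match lay inside the gene's own deposited model, so that 9 of 15 held the box before the start of that model, against 28.1% of all matched genes. Before the model it also lay in 3 of 4 genes of the SREBP system, in the 1 lipid gene with an entry, and in 1 of 3 efflux and LXR genes. In Hmgcs1 the sterol element core stood at bases -136 to -129, counted back from the start site, with a CCAAT box on either side. The core was further found in Acat2 and in Insig1 (bases -9 to -2, inside the deposited model of Insig1), and in 5.29% of all promoters. The full sterol element was in no member window (0.192% of all promoters), nor was the LXR element (0.0152%). In Fasn the letters CCAATTGG are a pair of overlapping boxes on opposite strands. These matches describe letters in 1 short window.

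Between 13036567 and 19822660 reads per library were assigned to genes. Expression is given as FPKM (fragments scaled to the length of the gene and the size of the library), and differences as log2 changes of (FPKM + 1) ± SE from limma, in the order treated against control where 2 means ± SD (n = 3) are given; a gene "rose" or "fell" where its Benjamini-Hochberg adjusted p over all genes tested was under 0.05. Across genes, which are not independent replicates, libraries of a group correlated most closely in GMP (r of 0.98 to 0.989) and least closely in MC38 TAM (0.81 to 0.95); the range was 0.925 to 0.988 for monocytes and 0.929 to 0.976 for B16 TAM. In monocytes the library PBS 2 stood apart, with GMP markers (7 genes) summing to 1800 FPKM at the top of a PBS range that began at 795. In MC38 TAM, PBS 3 and OMV-SIRP 2 stood apart, with 18.4% and 18.2% of tested genes listed at 0. The 7 GMP markers were all present in GMP libraries (sums 5140 to 6420) beside 8 mature neutrophil markers at 8630 to 19100, and all 6 monocyte markers were present in monocyte libraries. Of the 8 macrophage markers, all were present in B16 TAM, and Mertk was listed at 0 in the 3 MC38 PBS libraries. Fdps, Tm7sf2, Fdft1, Scap and Hmgcs1 share 26.7%, 12.1%, 18.3%, 13.2% and 12.1% of their exon bases with other annotated genes. The other gene lies on the same strand for Fdps and Tm7sf2, where counting by strand would not separate the reads. It lies on the opposite strand for Fdft1 (Ctsb), Scap and Hmgcs1. Whether the counting used strand is not given in the sources used here. Acat2 has a near-identical neighbour, and the values of all these genes are uncertain to that extent.

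**Figure D1:**
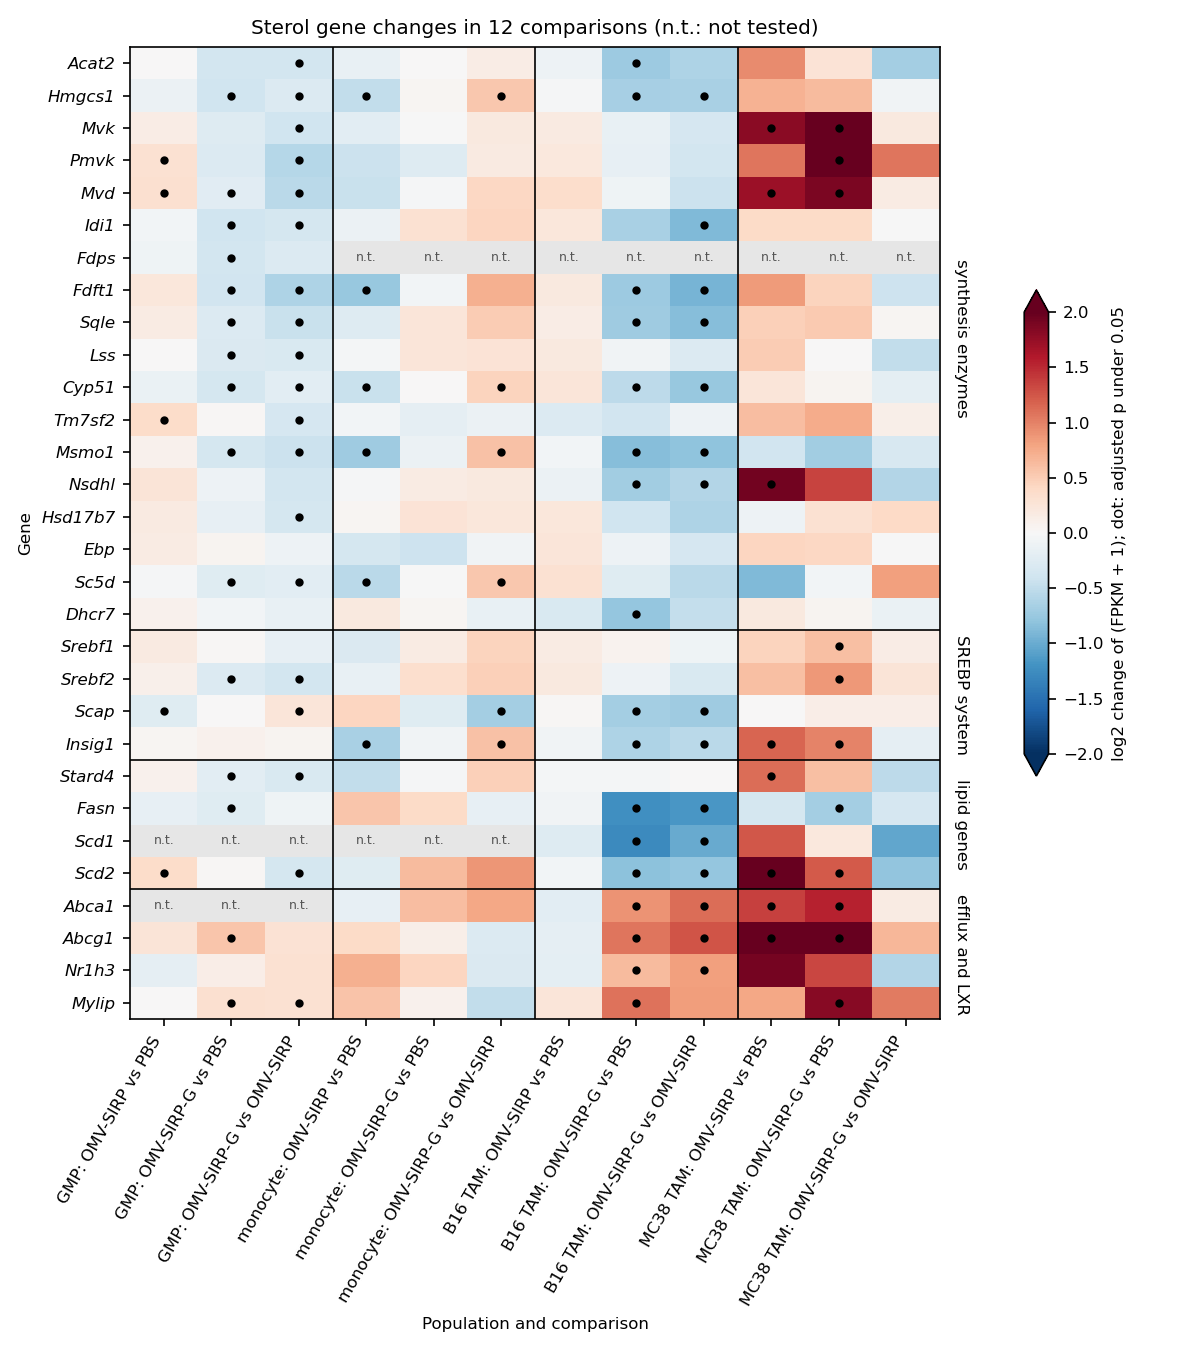
Log2 change of (FPKM + 1) of the 30 genes (rows, grouped by role) in 12 comparisons (columns, 3 per population), from blue (lower) through white to red (higher), with the colour scale ending at 2 in either direction; dots mark an adjusted p under 0.05 and n.t. a gene below the expression filter. Enzymes are mostly blue for OMV-SIRP-G in GMP and B16 TAM, where Abcg1 and Mylip are red.

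In GMP, many enzymes of cholesterol synthesis fell and 2 efflux and LXR genes rose after OMV-SIRP-G. Of 18 enzymes tested against PBS, 10 fell and 0 rose, where 12% of all 12287 genes changed, 5.22% of them downward (percentages are of all genes tested). No enzyme was called higher by limma voom on recovered reads either (11 lower), nor at an unadjusted p under 0.05 (13 lower). The enzymes' median log2 change was -0.28, against 1e-04 for all genes tested. Cyp51, the lanosterol demethylase, measured 17.7, 17.2 and 17.2 FPKM in the PBS libraries, 15.504, 15.2 and 16.2 after OMV-SIRP and 13.4, 13.1 and 13.7 after OMV-SIRP-G (log2 change -0.35 ± 0.04 SE, adjusted p = 0.000819, against PBS). All 3 OMV-SIRP-G libraries lay below all 6 others. Hmgcs1, which makes HMG-CoA at the entry to the mevalonate path, measured 19.4, 18.7 and 19.8 with PBS, 18.2, 18.3 and 16.7 with OMV-SIRP and 15.99, 13.9 and 13.45 with OMV-SIRP-G (log2 change -0.40 ± 0.07 SE, adjusted p = 0.00456). Msmo1, the methylsterol oxidase that acts after Cyp51, measured 11.8, 12.6 and 12.3 with PBS, 13.9, 12.7 and 12.3 with OMV-SIRP and 9.90, 8.93 and 9.44 with OMV-SIRP-G (log2 change -0.34 ± 0.06 SE, adjusted p = 0.00477). Idi1, the isomerase of isopentenyl diphosphate, measured 9.09, 10.98 and 10.6 with PBS, 9.99, 9.90 and 9.56 with OMV-SIRP and 7.92, 7.36 and 7.20 with OMV-SIRP-G (log2 change -0.40 ± 0.07 SE, adjusted p = 0.00537). In these 3 genes too the OMV-SIRP-G libraries lay below every other library. Against PBS alone they did so in 14.7% of all genes, and against OMV-SIRP alone in 22.4%. The other enzymes that fell were Sqle, squalene epoxidase (-0.28 ± 0.05), Fdft1, squalene synthase (-0.39 ± 0.09), Fdps, farnesyl diphosphate synthase (-0.36 ± 0.09), Lss, lanosterol synthase (-0.29 ± 0.07), Sc5d, a sterol desaturase (-0.24 ± 0.06), and Mvd, the mevalonate diphosphate decarboxylase (-0.22 ± 0.06). The 8 that did not pass the test lay between -0.36 (Acat2, adjusted p = 0.0561) and 0.05 (Ebp, the sterol isomerase, adjusted p = 0.791).

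Of the 4 genes of the SREBP system, Srebf2 was the 1 that passed the test. Srebf2, which encodes the SREBP that drives cholesterol genes, measured 47.01, 39.1 and 41.8 FPKM with PBS, 45.6, 46.02 and 45.2 with OMV-SIRP and 32.4, 36.1 and 36.49 with OMV-SIRP-G, and fell against PBS (log2 change -0.27 ± 0.07 SE, adjusted p = 0.0352). Insig1, the sterol-dependent anchor of SCAP, measured 30.6, 31.4 and 33.1, 34.4, 32.7 and 30.46 and 34.005, 33.6 and 33.3 in the same order (0.08 ± 0.05, adjusted p = 0.36). Its OMV-SIRP-G libraries lay just above the PBS libraries, and the OMV-SIRP libraries overlapped with both. Srebf1, whose products drive fatty acid genes more than cholesterol genes, measured 20.1, 16.3 and 16.6, 21.2, 19.3 and 20.03 and 18.4, 17.9 and 17.46 (0.02 ± 0.08, adjusted p = 0.9). Scap was at 0.00 ± 0.06 (adjusted p = 0.994). Of the lipid genes, Stard4, a cytosolic cholesterol carrier, measured 15.99, 16.4 and 16.04 with PBS, 17.46, 17.9 and 16.4 with OMV-SIRP and 13.7, 13.7 and 13.9 with OMV-SIRP-G and fell (log2 change -0.22 ± 0.04 SE, adjusted p = 0.013). Fasn, fatty acid synthase, also fell (-0.24 ± 0.06), and Scd2, a fatty acid desaturase, was at 0.02 ± 0.04 (adjusted p = 0.852).

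Among the efflux and LXR genes of GMP, 2 of 3 tested rose after OMV-SIRP-G, where 6.76% of all genes rose. Abcg1, which exports cholesterol to high-density lipoprotein, measured 1.06, 1.10 and 1.08 FPKM with PBS, 1.73, 1.18 and 1.58 with OMV-SIRP and 1.86, 1.94 and 2.35 with OMV-SIRP-G (log2 change 0.55 ± 0.11 SE, adjusted p = 0.00919). Mylip measured 2.58, 2.55 and 2.21, 2.29, 2.72 and 2.44 and 3.21, 3.60 and 3.14 (log2 change 0.32 ± 0.08 SE, adjusted p = 0.0257). Both were higher in each OMV-SIRP-G library than in any PBS library, as were 15.6% of all genes. Abca1, which exports cholesterol to apolipoprotein A-I, was below the expression filter at 0.123, 0.0546 and 0.119 with PBS, 0.272, 0.206 and 0.407 with OMV-SIRP and 1.12, 0.933 and 0.900 with OMV-SIRP-G; its 3 groups did not overlap, and in a fit without the filter its log2 change was 0.85 ± 0.09 (adjusted p = 0.00141). Nr1h3, which encodes LXR alpha, was at 0.13 ± 0.13 (adjusted p = 0.59). Scd1, a desaturase that is also a target of LXR, was not tested in GMP, at 0.132 to 0.185 FPKM with PBS and 0.0485 to 0.108 with OMV-SIRP-G.

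After OMV-SIRP, 3 enzymes of GMP rose. Against PBS 3 of 18 were called higher and 0 lower, where 18.2% of all genes changed, 10.6% upward and 7.52% downward; at an unadjusted p under 0.05, 5 were higher and 1 lower, and voom called 4 higher and 0 lower. Mvd measured 34.98, 33.3 and 35.48 FPKM with PBS, 40.51, 46.47 and 43.7 with OMV-SIRP and 28.2, 30.1 and 30.4 with OMV-SIRP-G, so that it rose under the former (log2 change 0.32 ± 0.06 SE, adjusted p = 0.00507) and fell under the latter. Pmvk, the phosphomevalonate kinase one step before Mvd, measured 11.2, 10.99 and 12.7, 13.4, 15.2 and 14.97 and 10.1, 9.62 and 8.62 in the same order (log2 change 0.30 ± 0.08 SE, adjusted p = 0.0274). Tm7sf2, a sterol reductase, measured 2.68, 3.24 and 3.38, 4.77, 4.38 and 3.73 and 3.13, 3.07 and 3.29 (log2 change 0.37 ± 0.09 SE, adjusted p = 0.0216). In all 3 the OMV-SIRP libraries were the highest, and 19.7% of all genes had OMV-SIRP libraries wholly above PBS. The other 15 lay between Cyp51 (-0.14 ± 0.04, adjusted p = 0.0535) and Nsdhl (0.26 ± 0.12, adjusted p = 0.164). Scaling to total reads turned the split of all calls from 1308 higher and 924 lower to 821 and 1825, and then called 2 enzymes higher and 1 lower. Scd2 measured 48.04, 47.7 and 48.1 with PBS, 65.2, 61.7 and 59.8 with OMV-SIRP and 48.1, 48.8 and 48.8 with OMV-SIRP-G and rose with OMV-SIRP (log2 change 0.37 ± 0.04 SE, adjusted p = 0.000444). Scap, the SREBP escort, measured 8.501, 7.11 and 7.89, 6.39, 6.40 and 6.54 and 7.63, 7.92 and 7.92 and fell (log2 change -0.24 ± 0.06 SE, adjusted p = 0.0241). None of the 3 efflux and LXR genes tested was called (1 at an unadjusted p under 0.05, and 1 by voom), and Abcg1 was at 0.26 ± 0.11 (adjusted p = 0.125).

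Between the agents, 14 of 18 enzymes of GMP were lower with OMV-SIRP-G than with OMV-SIRP and 0 were higher (14.8% of all genes changed, 8.12% downward and 6.7% upward); all 18 estimates were below 0, with a median of -0.35 against -0.01 for all genes, and 16 enzymes had OMV-SIRP-G libraries wholly below the OMV-SIRP libraries, as did 22.4% of all genes. The steepest falls were in Fdft1 (-0.61 ± 0.09), Pmvk (-0.57 ± 0.08) and Mvd (-0.54 ± 0.06). Srebf2 (-0.37 ± 0.07), Scd2 (-0.35 ± 0.04) and Stard4 (-0.30 ± 0.04) fell as well, while Scap (0.24 ± 0.06) and Mylip (0.31 ± 0.08) rose. The other enzymes called were Acat2, Hmgcs1, Mvk, Idi1, Sqle, Lss, Cyp51, Tm7sf2, Msmo1, Hsd17b7 and Sc5d, and those not called were Fdps, Nsdhl, Ebp and Dhcr7, the last between -0.36 (Nsdhl, adjusted p = 0.0663) and -0.10 (Ebp, adjusted p = 0.526). Scaling to total reads turned the split of all calls from 823 higher and 998 lower to 1344 and 606, with 7 enzymes lower and 0 higher. This comparison and the comparison with PBS share the OMV-SIRP-G libraries. Summed over the 18 enzymes, FPKM was 206 ± 9.51 with PBS, 225 ± 6.73 with OMV-SIRP and 170.1 ± 2.83 with OMV-SIRP-G (SD, n = 3 libraries), and over the 4 efflux and LXR genes 4.71 ± 0.0865, 5.13 ± 0.353 and 7.64 ± 0.384.

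Other values moved with treatment in the same GMP libraries. The 10 cell cycle genes summed to 310 to 326 FPKM with PBS, 417 to 435 with OMV-SIRP and 332 to 339 with OMV-SIRP-G. The 8 mature neutrophil markers summed to 8630 to 11400, 18800 to 19100 and 11300 to 11900, the 8 macrophage markers to 130 to 139, 137 to 144 and 188 to 200, the 7 handling stress genes to 273 to 322, 285 to 296 and 463 to 495, and the 7 erythroid markers to 39.8 to 56.6, 5.1 to 6.32 and 5.21 to 6.46. Within the neutrophil list, mean Retnlg (82.4, 472 and 714 FPKM), Mmp8 (32.7, 111 and 184), Mmp9 (49.2, 131 and 208) and Cxcr2 (34.9, 55.2 and 63.6) were highest with OMV-SIRP-G. Ngp (6784, 12135 and 7478), Ltf (1078, 2142 and 1324), Camp (2256, 3857 and 1628) and Ly6g (16.9, 53.4 and 37) were highest with OMV-SIRP. Of the markers summed above, 1 erythroid marker was at 0 in all 3 libraries of a treatment, OMV-SIRP. The part of the summed markers in the sterol gene results was not tested. In a bulk library, fewer cells of a type and less RNA per cell cannot be told apart. Of the 15 calls for OMV-SIRP-G against PBS, Hmgcs1, Idi1, Sqle, Cyp51, Msmo1 and Abcg1 kept theirs under every alternative run. The other 9 were lost when 1 library was left out (adjusted p 0.0502 to 0.142), Stard4 only without OMV-SIRP-G 2 (0.0541). Mvd and Scd2 kept theirs for OMV-SIRP against PBS, and Pmvk, Tm7sf2 and Scap did not (0.0559 to 0.0951). Against OMV-SIRP, 9 of 19 were kept, and 10 were lost on leaving out 1 library (0.0501 to 0.145).

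Neighbouring pathways of GMP were read from 4 further lists. Under OMV-SIRP-G against PBS, of 12 tested genes of fatty acid synthesis and desaturation 3 fell, where 5.22% of all genes fell: Acly, ATP citrate lyase, which supplies acetyl-CoA (52.52 ± 1.25 against 64.1 ± 0.859 FPKM, -0.28 ± 0.04), Acss2, an acetyl-CoA synthetase (-0.31 ± 0.06), and Lpin1 (-0.30 ± 0.08). Of 7 tested LXR partners and targets, 2 rose, where 6.76% of all genes rose: Arl4c (8.38 ± 0.144 against 5.06 ± 0.770, 0.64 ± 0.08) and Pltp, a phospholipid transfer protein (1.36 ± 0.356 against 0.145 ± 0.0311, 1.03 ± 0.14). Among 7 genes of oxysterol and ester metabolism, Soat1, which esterifies cholesterol (0.31 ± 0.05), and Lipa, the lysosomal acid lipase (0.23 ± 0.06), rose and Soat2 fell (-0.77 ± 0.14). Under OMV-SIRP, Gpam (-0.39 ± 0.07) and Acss2 (-0.21 ± 0.06) fell and Fads2 (0.19 ± 0.06) rose among the 12 fatty acid genes, where 10.6% of all genes rose and 7.52% fell. Rxra, the partner of LXR, fell (-0.64 ± 0.09) and Nr1h2, which encodes LXR beta, rose (0.19 ± 0.05) under it. Of the sterol sensing and transport genes Gramd1a rose (0.26 ± 0.06) and Erlin1 fell (-0.19 ± 0.05). Among the 7 oxysterol and ester genes 1 rose and 3 fell under OMV-SIRP. Soat1 rose (0.21 ± 0.05), and Soat2 (-0.91 ± 0.14) and Nceh1 (-0.25 ± 0.06) were among those that fell. The Soat1 and Soat2 calls thus had the same signs under both agents.

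**Figure D2:**
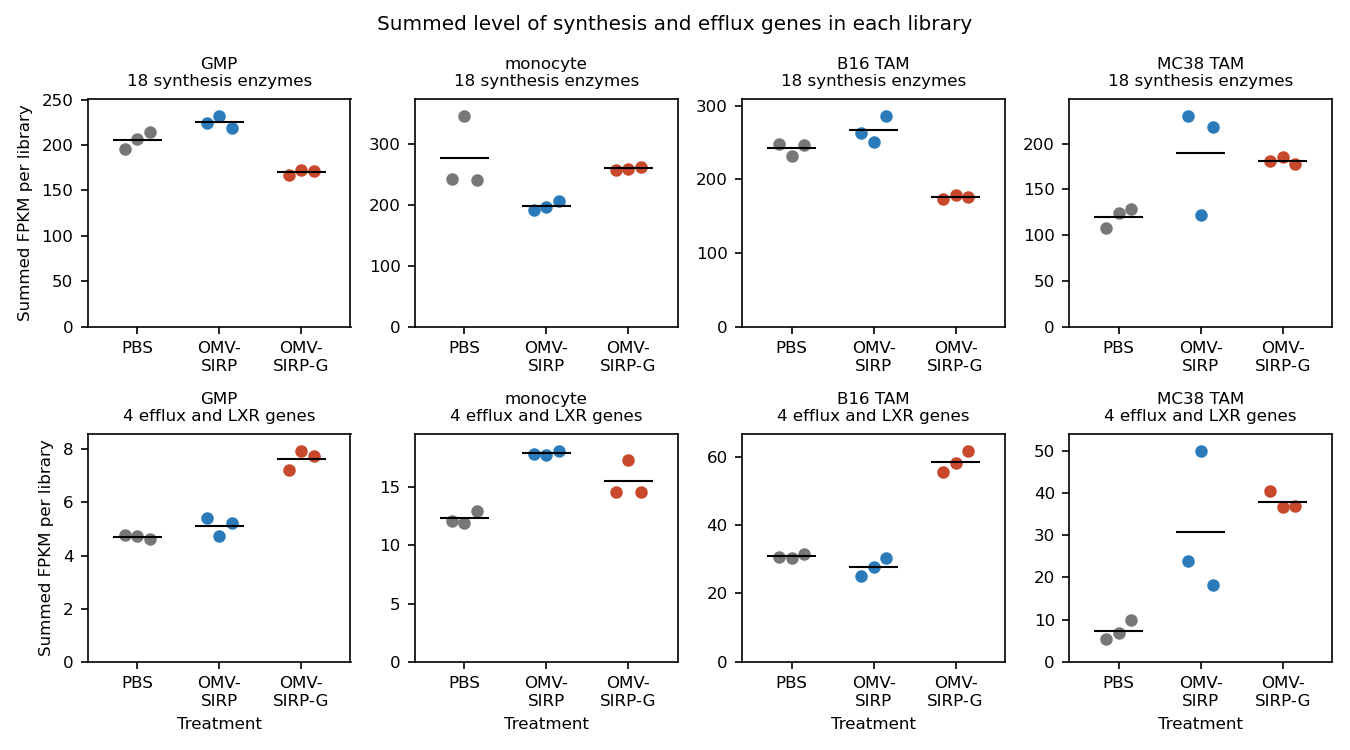
Summed FPKM of the 18 synthesis enzymes (top) and of the 4 efflux and LXR genes (bottom) in each library (points) of the 4 populations, by treatment, with the mean as a bar; all axes start at 0. In GMP and B16 TAM the OMV-SIRP-G points are the lowest of the top row and the highest of the bottom row, while in MC38 TAM both sums are lowest with PBS on average.

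In monocytes, 5 enzymes of the sterol path and Insig1 fell after OMV-SIRP, and no sterol gene passed the test after OMV-SIRP-G. Against PBS, 5 of 17 enzymes fell and 0 rose after OMV-SIRP, where 8.53% of all 12028 genes changed, 5.46% downward; 7 enzymes were lower and 0 higher at an unadjusted p under 0.05, and voom called 5 lower and 0 higher. Msmo1 measured 15.3, 19.3 and 14.98 FPKM with PBS, 9.24, 10.02 and 9.86 with OMV-SIRP and 14.7, 14.9 and 15.8 with OMV-SIRP-G (log2 change -0.70 ± 0.11 SE, adjusted p = 0.0082). Hmgcs1 measured 19.4, 19.3 and 19.2, 12.8, 14.6 and 12.9 and 20.1, 20.2 and 19.2 in the same order (log2 change -0.50 ± 0.09 SE, adjusted p = 0.0119). Cyp51 measured 16.97, 15.9 and 16.2, 11.9, 11.8 and 11.4 and 15.3, 16.95 and 16.9 (log2 change -0.45 ± 0.09 SE, adjusted p = 0.016). For each of the 3 genes the OMV-SIRP libraries were below all 6 others, and the PBS and OMV-SIRP-G libraries overlapped. OMV-SIRP libraries lay wholly below PBS in 16.5% of all genes, and wholly below OMV-SIRP-G in 22%. Sc5d measured 12.8, 10.4 and 12.51, 7.94, 8.07 and 7.44 and 12.54, 11.2 and 11.9 (log2 change -0.54 ± 0.11 SE, adjusted p = 0.0174), again with the OMV-SIRP libraries lowest. Fdft1 measured 19.4, 33.1 and 22.1, 14.1, 13.1 and 14.49 and 22.3, 23.4 and 24.2 (log2 change -0.76 ± 0.18 SE, adjusted p = 0.0349), its PBS 2 value standing well above the other PBS libraries. Insig1, itself a known SREBP target, measured 45.7, 38.9 and 46.48, 28.8, 28.3 and 25.3 and 43.47, 42.3 and 39.4 (log2 change -0.65 ± 0.11 SE, adjusted p = 0.00905), again lowest in the OMV-SIRP libraries.

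The remaining 12 tested enzymes of monocytes lay between -0.45 (Mvd, adjusted p = 0.2) and 0.19 (Dhcr7, the reductase that yields cholesterol, adjusted p = 0.404). Fdps was not tested, at 1.30, 0.381 and 1.18 FPKM with PBS, 0.654, 0.694 and 0.476 with OMV-SIRP and 0.934, 0.581 and 0.798 with OMV-SIRP-G, groups that overlap. Srebf2 measured 54.2, 32.46 and 52.3 with PBS, 40.46, 38.4 and 43.2 with OMV-SIRP and 57.48, 60.8 and 53.2 with OMV-SIRP-G (-0.15 ± 0.19 for OMV-SIRP, adjusted p = 0.681). Srebf1 measured 37.9999, 35.8 and 35.96, 28.1, 31.499 and 29.4 and 40.48, 44.8 and 37.7 (-0.29 ± 0.10, adjusted p = 0.113), without overlap between OMV-SIRP and either other group. OMV-SIRP libraries lay wholly below PBS in 16.5% of all genes. Scap measured 3.14, 3.03 and 2.72, 4.37, 4.08 and 4.57 and 2.21, 2.88 and 1.99, and it was highest with OMV-SIRP (0.43 ± 0.12, adjusted p = 0.0622). Of the lipid genes Stard4, Fasn and Scd2 were at -0.50 ± 0.15, 0.55 ± 0.23 and -0.24 ± 0.21, none past the test. Scd1 was below the expression filter, at 0.803, 0.561 and 0.612 with PBS, 0.135, 0.161 and 0.132 with OMV-SIRP and 0.321, 0.308 and 0.0981 with OMV-SIRP-G; in a fit without the filter its log2 change for OMV-SIRP was -0.54 ± 0.10 (adjusted p = 0.0395).

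None of the 4 efflux and LXR genes of monocytes passed the test for OMV-SIRP against PBS, although 3 were higher at an unadjusted p under 0.05 and voom called 1. Nr1h3 measured 2.41, 4.94 and 2.90 FPKM with PBS, 5.28, 6.63 and 6.20 with OMV-SIRP and 4.91, 5.23 and 4.23 with OMV-SIRP-G (0.71 ± 0.20, adjusted p = 0.069). Abcg1 measured 6.32, 5.32 and 6.36, 8.52, 7.70 and 8.04 and 6.05, 7.40 and 6.25 (0.38 ± 0.11, adjusted p = 0.0738). Mylip was at 0.58 ± 0.17 (adjusted p = 0.074). In these 3 genes each OMV-SIRP library exceeded each PBS library, as in 13.3% of all genes. Abca1 measured 1.80, 0.523 and 1.59, 0.872, 0.916 and 1.22 and 2.28, 2.69 and 2.32, with overlapping PBS and OMV-SIRP groups (-0.16 ± 0.22, adjusted p = 0.719).

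OMV-SIRP-G against PBS gave 0 calls among the 28 tested sterol genes of monocytes, with 2 at an unadjusted p under 0.05 and 0 by voom, where 3.67% of all genes changed, 1.53% upward and 2.14% downward. The lowest p-values among enzymes were those of Sqle (0.25 ± 0.11, adjusted p = 0.334), Ebp (-0.42 ± 0.24, adjusted p = 0.454), Nsdhl (0.16 ± 0.10) and Lss (0.24 ± 0.16). Sqle measured 10.6, 8.46 and 10.6 FPKM with PBS and 12.3, 12.55 and 10.9 with OMV-SIRP-G. Ebp measured 21.7, 43.2 and 22.8 and 20.6, 18.9 and 22.3, Nsdhl 5.74, 6.26 and 6.90 and 6.95, 7.43 and 7.11, and Lss 2.27, 1.31 and 2.39 and 2.12, 2.84 and 2.49. Sqle and Nsdhl were higher in each OMV-SIRP-G library than in any PBS library, as were 11.2% of all genes, and Ebp and Lss overlapped. The 17 enzymes lay between -0.42 (Ebp) and 0.31 (Idi1). Scd2 measured 72.2, 41.4 and 73.3 with PBS, 50.6, 51.2 and 50.9 with OMV-SIRP and 95.3, 103.55 and 84.9 with OMV-SIRP-G (0.64 ± 0.21, adjusted p = 0.183), and Abca1 and Nr1h3 were at 0.62 ± 0.22 and 0.43 ± 0.20. Between the 2 agents, OMV-SIRP-G against OMV-SIRP, Hmgcs1 (0.53 ± 0.09), Msmo1 (0.59 ± 0.11), Sc5d (0.54 ± 0.11), Cyp51 (0.45 ± 0.09) and Insig1 (0.59 ± 0.11) rose and Scap fell (-0.68 ± 0.12), where 2.44% of all genes changed, 1.59% upward. In each of the 5 that rose the OMV-SIRP-G libraries lay wholly above the OMV-SIRP libraries, as did 22% of all genes. This comparison shares the OMV-SIRP libraries with the comparison of OMV-SIRP and PBS. No enzyme fell in it (0 at an unadjusted p under 0.05 and 0 by voom), and the 13 enzymes not called lay between -0.15 (Dhcr7) and 0.71 (Fdft1, adjusted p = 0.0819). Scaling to total reads turned the split of all calls from 191 higher and 102 lower to 142 and 188, with 2 enzymes higher.

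These monocyte calls rest on few libraries. Of the 6 calls between the agents, 5 were lost whichever library was left out, and Scap was lost except without OMV-SIRP-G 2 (adjusted p 0.06 to 0.182). For OMV-SIRP against PBS, 5 of the 6 were lost when some library was left out (0.0505 to 0.122), Insig1 only without OMV-SIRP 3 (0.0505), and Msmo1 kept its call whichever library was left out. In a fit of the 6 PBS and OMV-SIRP libraries alone 0 enzymes were called. Without PBS 2, the library that stood apart, 7 enzymes fell and 3563 genes were called in place of 1026. The 10 cell cycle genes summed to 211 to 229 FPKM with PBS, 162 to 163 with OMV-SIRP and 167 to 174 with OMV-SIRP-G. The 7 GMP markers summed to 795 to 1800, 425 to 479 and 228 to 273, the 7 erythroid markers to 138 to 426, 8.51 to 9.61 and 17.1 to 21.3, and 7 handling stress genes to 664 to 689, 1090 to 1230 and 1340 to 1400. The 8 macrophage markers summed to 548 to 608, 693 to 782 and 637 to 684. No marker of these lists was at 0 in all 3 libraries of a treatment, and their part in the results was not tested. The enzymes summed to 276 ± 60.2 with PBS (SD, n = 3), 198 ± 7.89 with OMV-SIRP and 259 ± 2.21 with OMV-SIRP-G, and the efflux and LXR genes to 12.3 ± 0.575, 17.9 ± 0.185 and 15.5 ± 1.6. Scaling to total reads moved the median of all genes for OMV-SIRP against PBS from -0.03 to 0.11 and turned the split of calls from 369 higher and 657 lower to 675 and 406; 2 enzymes were then called lower.

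Of the wider lists in monocytes, 2 of 13 fatty acid genes rose with OMV-SIRP against PBS, where 3.07% of all genes rose, the desaturases Fads2 (3.81 ± 0.353 against 2.32 ± 0.128 FPKM, 0.53 ± 0.10) and Fads1 (0.58 ± 0.14). Of 12 sterol sensing and transport genes 3 fell, where 5.46% of all genes fell: Stard3 (-0.51 ± 0.10), Insig2 (-0.40 ± 0.10) and Npc2, the lysosomal sterol carrier (216.6 ± 0.157 against 448.1 ± 177.7, -0.98 ± 0.24). Of 7 oxysterol and ester genes, Nceh1, a cholesteryl ester hydrolase, rose (0.53 ± 0.13) and Soat2 fell (-0.77 ± 0.12). With OMV-SIRP-G against PBS 1 gene of the 4 lists was called, where 3.67% of all genes were, and Stard3 fell (-0.72 ± 0.10).

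**Figure D3:**
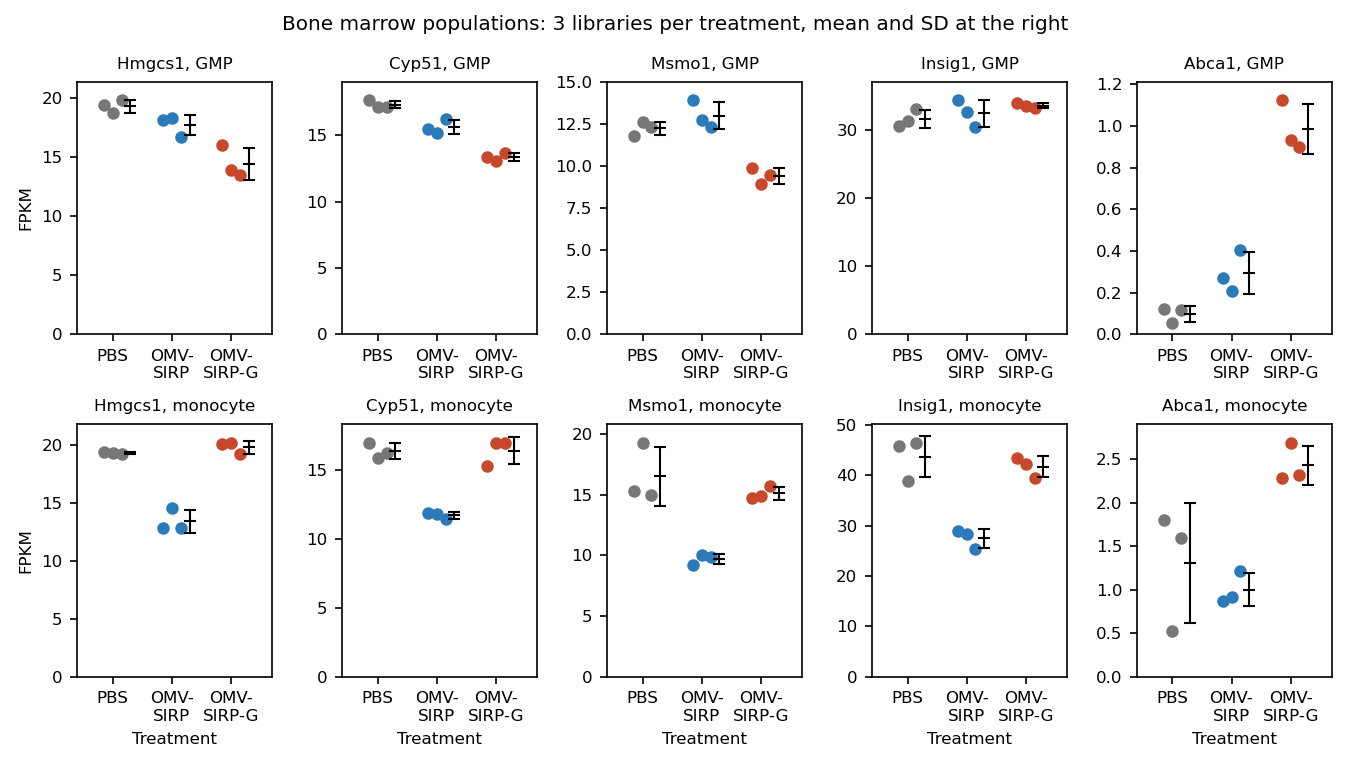
FPKM of 4 sterol synthesis or regulator genes and Abca1 in each library (points) of GMP (top) and monocytes (bottom) by treatment, with mean and SD (n = 3) at the right of each group; all axes start at 0. Hmgcs1, Cyp51 and Msmo1 are lowest with OMV-SIRP-G in GMP and lowest with OMV-SIRP in monocytes.

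In B16 TAM, 8 enzymes of cholesterol synthesis and 3 lipid genes fell after OMV-SIRP-G, and all 4 efflux and LXR genes rose. Against PBS, 8 of 17 enzymes fell and 0 rose, where 15.1% of all 12542 genes changed, 7.28% downward; voom called the same number, and at an unadjusted p under 0.05 there were 9 lower and 0 higher. All 17 estimates were below 0, with a median of -0.52 against -0.03 for all genes. Nsdhl, a sterol dehydrogenase, measured 12.8, 15.3 and 14.48 FPKM with PBS, 12.4, 13.51 and 13.3 with OMV-SIRP and 7.54, 8.97 and 8.68 with OMV-SIRP-G (log2 change -0.69 ± 0.14 SE, adjusted p = 0.00669). Fdft1 measured 16.3, 15.2 and 16.9, 17.4, 19.9 and 18.8 and 10.2, 10.4 and 7.73 in that order (log2 change -0.72 ± 0.14 SE, adjusted p = 0.0075). Msmo1 measured 14.2, 15.6 and 15.3, 16.95, 12.7 and 14.2 and 9.92, 6.54 and 7.57 (log2 change -0.85 ± 0.17 SE, adjusted p = 0.00787). In each the OMV-SIRP-G libraries were below all 6 others, while PBS and OMV-SIRP overlapped in Nsdhl and Msmo1. OMV-SIRP-G libraries lay wholly below PBS in 18.6% of all genes, and wholly below OMV-SIRP in 13.9%. Hmgcs1 measured 17.2, 14.4 and 16.04, 16.2, 14.4 and 16.4 and 10.9, 9.82 and 8.39 (log2 change -0.66 ± 0.14 SE, adjusted p = 0.0108). The others that fell were Dhcr7 (-0.77 ± 0.19), Acat2 (-0.72 ± 0.21), Sqle (-0.71 ± 0.18) and Cyp51 (-0.52 ± 0.13). The 9 that did not pass the test lay between Idi1 (-0.64 ± 0.25, adjusted p = 0.122) and Lss (-0.07 ± 0.22, adjusted p = 0.878). Fdps was not tested, at 0.158, 0.412 and 0.702 with PBS, 0.119, 0.847 and 0.895 with OMV-SIRP and 0, 0.461 and 0.869 with OMV-SIRP-G.

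Of the SREBP system, Insig1 and Scap fell and neither Srebf gene was called. Insig1 measured 25.1, 28.6 and 28.02 FPKM with PBS, 24.4, 28.51 and 24.498 with OMV-SIRP and 19.8, 17.01 and 15.9 with OMV-SIRP-G (log2 change -0.61 ± 0.13 SE, adjusted p = 0.01). Scap fell with OMV-SIRP-G (log2 change -0.68 ± 0.20 SE, adjusted p = 0.0438). Both had OMV-SIRP-G libraries below every other library, where 18.6% of all genes had them wholly below PBS. Srebf1 measured 23.7, 20.9 and 21.4, 24.1, 28.7 and 21.6 and 22.7, 20.4 and 26.6 (0.07 ± 0.14, adjusted p = 0.795). Srebf2 measured 51.4, 45.2 and 45.52, 56.7, 60.4 and 47.49 and 45.99, 42.9 and 42.9 (-0.11 ± 0.12, adjusted p = 0.608). Of both, OMV-SIRP-G and PBS libraries overlapped.

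Scd1 and Fasn showed the steepest falls among the 29 tested genes of B16 TAM. Scd1, the stearoyl-CoA desaturase, measured 19.97, 24.2 and 22.9 FPKM with PBS, 16.9, 18.6 and 20.2 with OMV-SIRP and 8.61, 7.19 and 10.4 with OMV-SIRP-G (log2 change -1.27 ± 0.16 SE, adjusted p = 0.000459). Fasn measured 38.496, 39.4 and 38.7, 43.9, 41.04 and 28.4 and 18.2, 16.9 and 13.55 (log2 change -1.22 ± 0.17 SE, adjusted p = 0.00106). Scd2 measured 122.9, 129.97 and 127.04, 136.7, 128.1 and 104.1 and 67.1, 69.1 and 77.99 (log2 change -0.82 ± 0.12 SE, adjusted p = 0.00131). For all 3 the OMV-SIRP-G libraries were the lowest of the 9, where 18.6% of all genes had them wholly below PBS. Scd1 and Scd2 are close paralogs, and reads shared between them may be split unevenly. Stard4 was at -0.04 ± 0.23 (adjusted p = 0.937).

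The efflux and LXR genes moved the other way, 4 of 4 rising where 7.83% of all genes rose. Abca1 measured 4.96, 3.74 and 5.24 FPKM with PBS, 4.89, 4.25 and 2.62 with OMV-SIRP and 9.79, 9.76 and 8.94 with OMV-SIRP-G (log2 change 0.90 ± 0.21 SE, adjusted p = 0.0159). Abcg1 measured 6.98, 7.94 and 6.74, 4.64, 5.74 and 8.83 and 14.45, 16.9 and 17.496 (log2 change 1.07 ± 0.20 SE, adjusted p = 0.00589). Nr1h3 measured 17.03, 16.45 and 16.53, 13.3, 13.9 and 16.4 and 25.04, 28.1 and 26.46 (log2 change 0.64 ± 0.12 SE, adjusted p = 0.00625). In these 3 genes each OMV-SIRP-G library exceeded all 6 others. Against PBS alone 17.4% of all genes showed this, and against OMV-SIRP alone 13.9%. Mylip measured 1.69, 2.17 and 2.96, 2.29, 3.85 and 2.56 and 6.31, 3.46 and 8.86 (log2 change 1.08 ± 0.30 SE, adjusted p = 0.0356), and here OMV-SIRP-G overlapped with OMV-SIRP. Summed, the enzymes came to 242 ± 8.6 with PBS (SD, n = 3), 267 ± 18.1 with OMV-SIRP and 176 ± 3.13 with OMV-SIRP-G, and the efflux and LXR genes to 30.8 ± 0.603, 27.8 ± 2.65 and 58.5 ± 3.09.

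**Figure D4:**
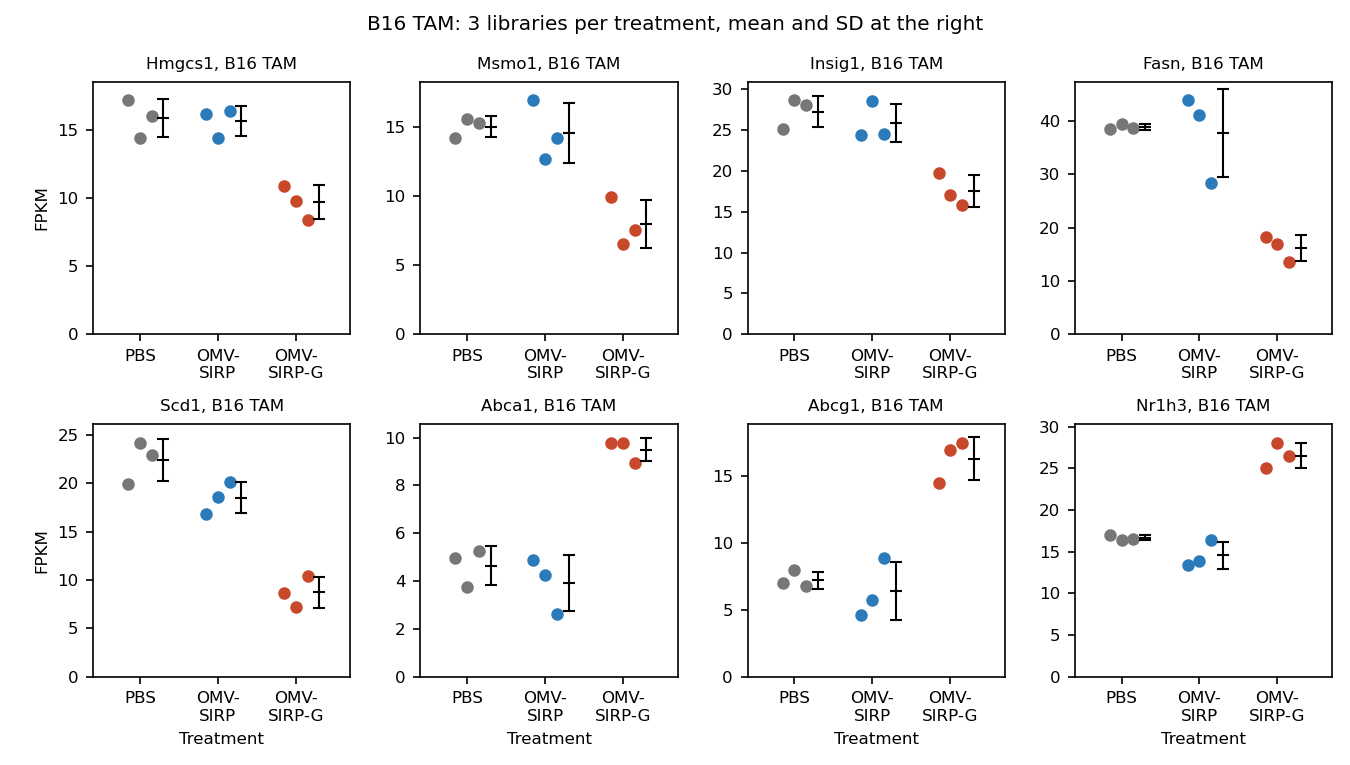
FPKM of 8 genes in each B16 TAM library (points) by treatment, with mean and SD (n = 3) at the right of each group; all axes start at 0. Hmgcs1, Msmo1, Insig1, Fasn and Scd1 are lowest, and Abca1, Abcg1 and Nr1h3 highest, in the 3 OMV-SIRP-G libraries.

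OMV-SIRP against PBS gave 0 calls among the 29 tested genes in B16 TAM, with 1 at an unadjusted p under 0.05 and 0 by voom, where 1.45% of all genes changed, 0.885% upward. The enzymes with the lowest p were Mvd (0.35 ± 0.13), Cyp51 (0.23 ± 0.13), Dhcr7 (-0.30 ± 0.19) and Fdft1 (0.20 ± 0.14), and the other genes Srebf2 (0.20 ± 0.12), Scd1 (-0.26 ± 0.16) and Nr1h3 (-0.19 ± 0.12), at adjusted p of 0.409 or more. All 17 enzymes lay between Dhcr7 and Mvd. Mvd measured 25.03, 21.6 and 26.7 with PBS and 32.2, 27.1 and 34.96 with OMV-SIRP, without overlap. Cyp51 measured 28.2, 27.3 and 28.46 and 34.2, 31.6 and 33.6, and Dhcr7 20.2, 17.4 and 16.8 and 15.9, 13.9 and 13.6, also without overlap, which 7.88% of all genes showed upward and 8.75% downward. OMV-SIRP-G against OMV-SIRP lowered 7 of 17 enzymes (12% of all genes changed, 5.62% downward): Fdft1 (-0.92 ± 0.14), Cyp51 (-0.76 ± 0.13), Sqle (-0.86 ± 0.18), Msmo1 (-0.80 ± 0.17), Hmgcs1 (-0.64 ± 0.14), Nsdhl (-0.58 ± 0.14) and Idi1 (-0.88 ± 0.25). None rose in it (0 at an unadjusted p under 0.05 and 0 by voom), and the 10 not called lay between Acat2 (-0.62 ± 0.21) and Tm7sf2 (-0.10 ± 0.25). Insig1 (-0.53 ± 0.13), Scap (-0.70 ± 0.20), Fasn (-1.16 ± 0.17), Scd1 (-1.02 ± 0.16) and Scd2 (-0.77 ± 0.12) fell too. Abcg1 (1.26 ± 0.20), Abca1 (1.12 ± 0.21) and Nr1h3 (0.83 ± 0.12) rose, 3 of 4 efflux and LXR genes where 6.35% of all genes rose, and Mylip was at 0.83 ± 0.30 (adjusted p = 0.107). The same OMV-SIRP-G libraries enter both comparisons.

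Marker levels of the B16 TAM libraries differed between treatments as well. The 8 macrophage markers, all above 0 in every group, summed to 3670 to 4090 FPKM with PBS, 3400 to 4670 with OMV-SIRP and 7140 to 7440 with OMV-SIRP-G. The 5 melanocyte and melanoma markers, also all above 0, summed to 2800 to 3050, 2290 to 2530 and 773 to 879. The 6 monocyte markers summed to 181 to 193, 190 to 232 and 488 to 532, the 7 handling stress genes to 402 to 428, 347 to 389 and 533 to 561, and the 7 erythroid markers to 16500 to 17900, 2220 to 3100 and 3230 to 3270, with 1 erythroid marker at 0 in all 3 OMV-SIRP-G libraries. Cell cycle genes overlapped at 240 to 254, 230 to 241 and 220 to 248. The part of tumour cell or macrophage RNA in the sterol gene results was not tested. Hmgcs1, Fdft1, Msmo1, Nsdhl, Insig1, Fasn, Scd1, Scd2, Abcg1 and Nr1h3 kept their calls for OMV-SIRP-G against PBS under every alternative, and 7 others lost theirs on leaving out 1 library (adjusted p 0.0515 to 0.134), Abca1 only without PBS 2 (0.0691). Against OMV-SIRP, 10 of 15 were kept and 5 lost (0.0503 to 0.149), Msmo1 only without OMV-SIRP 1 (0.0503).

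**Figure D5:**
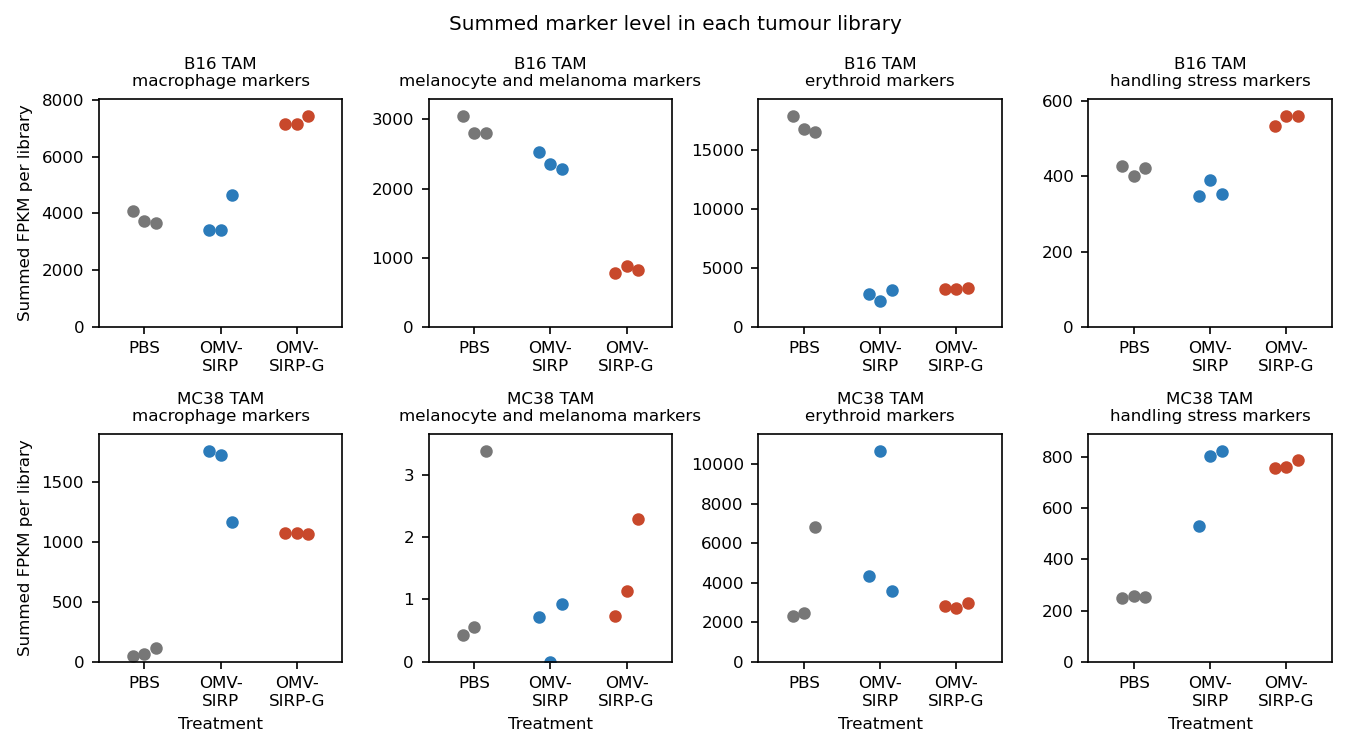
Summed FPKM of macrophage (8 genes), melanocyte and melanoma (5), erythroid (7) and handling stress (7) markers in each library (points) of B16 TAM (top) and MC38 TAM (bottom) by treatment; all axes start at 0. In B16 TAM macrophage markers are highest and melanoma markers lowest with OMV-SIRP-G, and in MC38 TAM the macrophage markers of the 3 PBS libraries lie between 49.8 and 117, below all treated libraries.

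The wider lipid lists of B16 TAM also held calls. Of 14 fatty acid genes, 4 fell with OMV-SIRP-G against PBS, where 7.28% of all genes fell, led by Acsl3, an acyl-CoA synthetase (4.47 ± 0.990 against 12.7 ± 0.602 FPKM, -1.34 ± 0.19), Fads2 (13.3 ± 3.94 against 29.49 ± 7.05, -1.10 ± 0.22) and Me1, malic enzyme (-0.89 ± 0.20). Of 9 tested genes of oxysterol and ester metabolism, 4 rose, where 7.83% of all genes rose, with Plin2, a coat protein of lipid droplets, at 272.1 ± 15.6 against 159.7 ± 7.64 (0.76 ± 0.11), Lipa at 56.1 ± 2.09 against 37.53 ± 1.35 (0.57 ± 0.10) and Soat1 at 16.7 ± 2.46 against 11.02 ± 0.745 (0.55 ± 0.15). Of 8 LXR partners and targets 1 rose, Pltp (88.1 ± 5.67 against 49.4 ± 4.78, 0.82 ± 0.13), which also rose with OMV-SIRP against PBS (0.61 ± 0.13). Of 12 sterol sensing and transport genes, Insig2, the second sterol anchor, fell (7.89 ± 0.986 against 18.8 ± 1.22, -1.16 ± 0.15), and Npc2 (0.52 ± 0.11) and Gramd1b (0.80 ± 0.22) rose.

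In MC38 TAM, Insig1, Scd2 and the exporters Abca1 and Abcg1 rose after each agent, and few enzymes of cholesterol synthesis were called. OMV-SIRP raised 3 of 17 enzymes and lowered 0 (6 higher and 0 lower at an unadjusted p under 0.05, and 1 higher by voom), where 10.9% of all 14089 genes changed, 7.4% upward and 3.49% downward. OMV-SIRP-G raised 3 and lowered 0 (4 higher and 1 lower unadjusted, 2 higher and 0 lower by voom), where 19.9% of all genes changed, 13.1% upward, so that the share of enzymes called higher was near that of all genes. Mvd measured 6.56, 7.56 and 4.38 FPKM with PBS, 26.2, 16.8 and 24.3 with OMV-SIRP and 23.48, 30.2 and 21.6 with OMV-SIRP-G (log2 change 1.71 ± 0.25 SE, adjusted p = 0.00436 for OMV-SIRP; log2 change 1.88 ± 0.25 SE, adjusted p = 0.00179 for OMV-SIRP-G). All 6 treated libraries exceeded all 3 PBS libraries. OMV-SIRP libraries lay wholly above PBS in 15.5% of all genes, and OMV-SIRP-G libraries in 25.5%. Mvk, mevalonate kinase, measured 1.87, 1.78 and 0, 9.49, 2.99 and 7.15 and 6.64, 7.11 and 7.26 in the same order (log2 change 1.81 ± 0.48 SE, adjusted p = 0.0429; log2 change 2.001 ± 0.48 SE, adjusted p = 0.0192). Nsdhl measured 2.08, 3.60 and 0, 9.55, 8.997 and 6.4999 and 6.21, 5.97 and 3.62 and rose with OMV-SIRP (log2 change 1.93 ± 0.51 SE, adjusted p = 0.0415); for OMV-SIRP-G its adjusted p was 0.0951. Pmvk measured 1.55, 11.01 and 4.46, 14.2, 3.80 and 19.9 and 25.2, 23.3 and 21.3 and rose with OMV-SIRP-G (log2 change 2.13 ± 0.62 SE, adjusted p = 0.0403), while its PBS and OMV-SIRP libraries overlapped. Mvk and Nsdhl are listed at 0 in PBS 3, where the PBS 1 library held 96 and 114 reads of them.

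Other enzymes of MC38 TAM were spread widely between libraries. Fdft1 measured 4.67, 8.32 and 6.67 FPKM with PBS, 14.01, 9.35 and 14.4 with OMV-SIRP and 8.97, 8.04 and 10.2 with OMV-SIRP-G (0.85 ± 0.25 for OMV-SIRP, adjusted p = 0.0603), with no treated library inside the PBS range apart from OMV-SIRP-G 2. Msmo1 measured 13.4, 17.7 and 21.4, 17.01, 9.25 and 13.8 and 9.10, 11.55 and 10.2 (-0.69 ± 0.25 for OMV-SIRP-G, adjusted p = 0.0864). Hmgcs1 was at 10.9, 7.44 and 9.28, 22.03, 9.58 and 17.1 and 15.7, 12.502 and 15.9 and Cyp51 at 17.1, 16.3 and 17.53, 30.6, 9.43 and 28.1 and 17.2, 16.51 and 19.2, with OMV-SIRP 2 the lowest OMV-SIRP library in both. The enzymes not called lay between Sc5d (-0.88 ± 0.50) and Pmvk (1.06 ± 0.62) for OMV-SIRP, and between Msmo1 and Nsdhl (1.34 ± 0.51) for OMV-SIRP-G. Fdps was not tested and is listed at 0 in PBS 1, PBS 3 and OMV-SIRP 2.

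Of the SREBP system, Insig1 measured 7.42, 9.28 and 14.8 FPKM with PBS, 24.9, 26.45 and 20.95 with OMV-SIRP and 17.4, 24.1 and 22.6 with OMV-SIRP-G, and rose with both (log2 change 1.17 ± 0.25 SE, adjusted p = 0.0205; log2 change 1.00 ± 0.25 SE, adjusted p = 0.0234). Srebf2 measured 17.4, 24.1 and 23.53, 38.003, 23.9 and 40.1 and 41.52, 39.3 and 39.2 and rose with OMV-SIRP-G (log2 change 0.87 ± 0.22 SE, adjusted p = 0.0241). Srebf1 measured 12.2, 10.2 and 11.6, 17.3, 13.51 and 16.8 and 19.1, 15.9 and 17.8 and rose with OMV-SIRP-G (log2 change 0.60 ± 0.17 SE, adjusted p = 0.0398). In all 3 the OMV-SIRP-G libraries lay above the PBS libraries, as in 25.5% of all genes. Scap was at 0.00 ± 0.19 and 0.13 ± 0.19 for the 2 agents. Among the lipid genes, Scd2 measured 14.4, 12.1 and 13.8, 95.47, 33.05 and 59.4 and 36.4, 32.3 and 29.6 and rose with both (log2 change 2.02 ± 0.32 SE, adjusted p = 0.00648; log2 change 1.22 ± 0.32 SE, adjusted p = 0.0278). Stard4 rose with OMV-SIRP (1.12 ± 0.31), and Fasn, at 29.3, 24.2 and 23.2, 18.7, 17.1 and 24.2 and 16.9, 14.7 and 14.9, fell with OMV-SIRP-G (log2 change -0.68 ± 0.18 SE, adjusted p = 0.0298). Scd1 was at 1.25 ± 0.46 and 0.21 ± 0.46, neither past the test.

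Of the efflux and LXR genes, 2 of 4 rose with OMV-SIRP and 3 of 4 with OMV-SIRP-G, where 7.4% and 13.1% of all genes rose. Abcg1 measured 1.55, 0.245 and 0.0264 FPKM with PBS, from 217, 36 and 3 reads, 6.74, 13.54 and 4.36 with OMV-SIRP and 12.2, 13.4 and 11.8 with OMV-SIRP-G (log2 change 2.51 ± 0.43 SE, adjusted p = 0.00875; log2 change 3.18 ± 0.43 SE, adjusted p = 0.00191). Abca1 measured 2.96, 4.14 and 7.45, 12.3, 22.7 and 8.47 and 17.4, 14.98 and 13.3 (log2 change 1.37 ± 0.37 SE, adjusted p = 0.0466; log2 change 1.54 ± 0.37 SE, adjusted p = 0.0204). Mylip measured 0.774, 1.77 and 2.38, 2.79, 3.84 and 3.57 and 9.03, 7.45 and 7.64 and rose with OMV-SIRP-G (log2 change 1.82 ± 0.29 SE, adjusted p = 0.00377). For these genes every treated library exceeded every PBS library. Of all genes, 15.5% had OMV-SIRP libraries wholly above PBS and 25.5% had OMV-SIRP-G libraries wholly above PBS. Nr1h3 is listed at 0 in PBS 1 and PBS 3 and measured 0.612 in PBS 2, 1.97, 9.91 and 1.70 with OMV-SIRP and 1.79, 0.840 and 4.06 with OMV-SIRP-G (1.92 ± 0.60, adjusted p = 0.0727; 1.34 ± 0.60, adjusted p = 0.153). Between the 2 agents 0 of the 29 tested genes were called, with 3 at an unadjusted p under 0.05 and 0 by voom, where 0.383% of all genes changed. The enzymes summed to 120.4 ± 11 with PBS (SD, n = 3), 190.1 ± 59.5 with OMV-SIRP and 181 ± 3.57 with OMV-SIRP-G, and the efflux and LXR genes to 7.3 ± 2.34, 30.6 ± 17 and 37.9 ± 2.12.

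The MC38 PBS libraries differed from the treated ones in more than sterol genes. Their 8 macrophage markers summed to 49.8 to 117 FPKM, with Mertk listed at 0, against 1160 to 1760 with OMV-SIRP and 1060 to 1080 with OMV-SIRP-G, all 8 above 0. The 7 handling stress genes summed to 249 to 256, 530 to 826 and 757 to 789, and the 6 monocyte markers to 141 to 262, 290 to 561 and 412 to 441. Mitochondrial genes held 2.98% to 5.07%, 15.2% to 21.5% and 6.06% to 6.46% of the reads. The part of macrophage content in the MC38 results was not tested, and PBS and low macrophage marker level cannot be told apart in these 9 libraries. Without PBS 3 and OMV-SIRP 2 together, a choice made after the data were seen, 9 enzymes rose with OMV-SIRP and 5 with OMV-SIRP-G against PBS, and Acat2, Cyp51, Scd1 and Scd2 were lower with OMV-SIRP-G than with OMV-SIRP. Without OMV-SIRP 2 alone 7 rose with OMV-SIRP. Mvd and Scd2 kept their OMV-SIRP calls, and Mvd, Abcg1 and Mylip their OMV-SIRP-G calls, under every alternative; Abcg1 lost its OMV-SIRP call by voom (adjusted p = 0.06) and in the fit of the 2 groups alone (0.0539), and 5 and 8 others were lost on leaving out 1 library (adjusted p 0.0508 to 0.139 and 0.0531 to 0.154). Scaling to total reads moved the median of all genes for OMV-SIRP against PBS from 0.03 to -0.27 and turned the split of calls from 1042 higher and 492 lower to 697 and 1635, with Mvd still called higher; for OMV-SIRP-G against PBS it turned 1843 and 966 to 1551 and 1431, and between the agents 21 and 33 to 28 and 20.

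Beyond the 4 efflux and LXR genes, 5 of 7 tested LXR partners and targets rose with OMV-SIRP in MC38 TAM, and 6 rose with OMV-SIRP-G, where 7.4% and 13.1% of all genes rose. Smpdl3a, an LXR target that encodes a phosphodiesterase, measured 35.05 ± 16.8 against 5.31 ± 3.07 FPKM with OMV-SIRP against PBS (2.55 ± 0.47) and 37.03 ± 3.40 against 5.31 ± 3.07 with OMV-SIRP-G (2.75 ± 0.47). Arl4c rose with both (0.78 ± 0.16 and 1.10 ± 0.16), Pltp with OMV-SIRP (2.38 ± 0.46), and Nr1h2, which encodes LXR beta, with OMV-SIRP-G (1.26 ± 0.18). Of 8 oxysterol and ester genes 4 rose with each agent; Ch25h and Cyp27a1, enzymes that make oxysterols, are listed at 0 in all 3 PBS libraries and measured 8.75 ± 4.46 and 3.82 ± 2.83 with OMV-SIRP and 15.2 ± 3.45 and 5.59 ± 0.588 with OMV-SIRP-G. Of 12 sterol sensing and transport genes, Npc2 rose with both (0.95 ± 0.22 and 1.13 ± 0.22), and Gramd1b (1.60 ± 0.29) and Gramd1a (0.81 ± 0.19) rose with OMV-SIRP-G. Of 13 fatty acid genes Lpin1 rose (1.52 ± 0.36) and Me1 fell (-1.06 ± 0.31) with OMV-SIRP-G.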

How the data were processed

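Messenger RNA of 36 mouse libraries was sequenced in 12 groups of 3, with groups and replicates taken from the labels. The deposited tables give FPKM per gene and the gene length; per the submitters' processing notes the authors used GRCm38, HISAT2 (2.0.5), StringTie and featureCounts (1.5.0-p3), with roles not given in the sources used here. FPKM times gene length gave whole reads for 100% of values (within 0.05), 13036567 to 19822660 per library. The scaling total behind the FPKM was 0.768 to 1.20 times the assigned reads, so the authors scaled libraries other than by their total, which can move every gene of a library together. Each of the 3 tables was scaled on its own, and tests were made within a population only.

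In R 4.3.3, limma 3.58.1 (lmFit, then eBayes with trend and robust settings) was fitted to log2(FPKM + 1) of the 9 libraries of a population, for genes that reached an FPKM of 1 in 3 or more libraries; the pseudocount understates changes of low genes. P-values were Benjamini-Hochberg adjusted over all genes tested, with a threshold of 0.05. The alternatives were a pseudocount of 0.1, no filter, scaling to total reads, a replicate block, limma voom on recovered reads, a fit of 2 groups alone, and each library left out. The fit was also run on simulated data with independent noise for each gene. The changes planted there were larger than all member changes called in GMP and monocytes, most in B16 TAM and some in MC38 TAM. That run does not bear on changes of such smaller size.

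The members and lists were chosen with earlier results of these data known. Per-library values are given for the enzymes (up to 4) and other members (up to 3) of lowest adjusted p in each comparison with PBS, and for Srebf1, Srebf2, Insig1, Abca1 and Abcg1 throughout. Of each further list up to 3 called genes of lowest adjusted p are named. Further values by library of other called members were added after the values were seen.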

Additional observations from a re-analysis of the deposited data

Results flagged for a closer look

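Some genes were called in opposite directions in 2 populations under the same contrast. The populations were not set against each other in a test, since their values were scaled separately or the difference was not fitted, so none of these differences was tested. Insig1 changed by -0.65 in monocytes and 1.17 in MC38 TAM (log2) for OMV-SIRP against PBS. For OMV-SIRP-G against PBS, Insig1 changed by -0.61 in B16 TAM and 1.00 in MC38 TAM. In that contrast Mvd changed by -0.22 in GMP and 1.88 in MC38 TAM, and Srebf2 by -0.27 in GMP and 0.87 in MC38 TAM. Scd2 changed by -0.82 in B16 TAM and 1.22 in MC38 TAM. For this contrast the GMP call of Mvd and the MC38 TAM call of Scd2 were lost whichever of 6 libraries was left out. Both Srebf2 calls and the MC38 TAM call of Insig1 were lost in 4 of 6.

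For OMV-SIRP-G against OMV-SIRP, 6 genes were called in opposite directions. Hmgcs1 changed by -0.28 in GMP, 0.53 in monocytes and -0.64 in B16 TAM. Cyp51 changed by -0.21, 0.45 and -0.76 in the same order, and Msmo1 by -0.42, 0.59 and -0.80. Sc5d changed by -0.21 in GMP and 0.54 in monocytes. Insig1 changed by 0.59 in monocytes and -0.53 in B16 TAM. Scap changed by 0.24 in GMP, -0.68 in monocytes and -0.70 in B16 TAM, so that GMP differed in sign from monocytes and B16 TAM. In monocytes the calls of Hmgcs1, Cyp51, Msmo1, Sc5d and Insig1 were lost whichever of 6 libraries was left out, and that of Scap in 5 of 6. In GMP those of Sc5d and Scap were lost in 6 of 6, Hmgcs1 in 4 and Cyp51 in 2. In B16 TAM Scap was lost in 4, Insig1 in 3 and Msmo1 in 1.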

How the results depend on the processing

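No call of a member reversed its sign under any alternative run. In GMP, without the filter, 1 enzyme was called higher for OMV-SIRP against PBS, 6 lower for OMV-SIRP-G against PBS (6 also in a fit of the 2 groups alone) and 7 lower for OMV-SIRP-G against OMV-SIRP. Scaling to total reads gave 1 enzyme lower and 7 lower for the first and last of these. In monocytes, enzymes called lower for OMV-SIRP against PBS numbered 2 under total reads, 2 with the replicate block and 0 in the fit of the 2 groups alone, with 520 and 284 genes called in the last 2 settings. For OMV-SIRP-G against PBS the block gave 242 genes and the fit of 2 groups 177. For OMV-SIRP-G against OMV-SIRP, enzymes called higher numbered 1 without the filter, 2 under total reads, 0 with the block and 8 in the fit of 2 groups, with 154 genes without the filter, 75 with the block and 2118 in the fit of 2 groups.

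In B16 TAM no filter gave 112 genes for OMV-SIRP against PBS, 4 enzymes lower for OMV-SIRP-G against PBS and 925 genes for OMV-SIRP-G against OMV-SIRP. In MC38 TAM, OMV-SIRP against PBS gave 1 enzyme higher with a pseudocount of 0.1, without the filter, under total reads, by voom and in the fit of 2 groups, with 762 genes without the filter, 2332 under total reads and 409 in the fit of 2 groups. OMV-SIRP-G against PBS gave 1725 genes without the filter, 1 enzyme lower under total reads, and 5 enzymes higher and 1 lower in the fit of 2 groups. OMV-SIRP-G against OMV-SIRP gave 16 genes without the filter, 8 with the block and 93 by voom. Leaving out PBS 3 and OMV-SIRP 2, chosen after seeing the data, gave 9 and 5 enzymes higher for OMV-SIRP and OMV-SIRP-G against PBS, 4701 genes for the latter, and 2 enzymes lower with 644 genes between the agents. The cause of these shifts was not tested.

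With each library left out in turn, GMP gave 1 to 4 enzymes higher and 1390 to 2144 genes for OMV-SIRP against PBS, 6 to 9 lower and 892 to 1882 genes for OMV-SIRP-G against PBS, and 7 to 10 lower and 1068 to 1333 genes between the agents. Monocytes gave 1 to 7 lower and 366 to 3563 genes, 202 to 1479 genes, and 0 higher with 59 to 76 genes in the same order. B16 TAM gave 73 to 144 genes, 4 to 6 lower with 1177 to 1470 genes, and 5 to 9 lower with 1005 to 1327 genes. MC38 TAM gave 1 to 7 higher with 728 to 2002 genes, 1 to 4 higher with 1262 to 2679 genes, and 0 to 189 genes. In their deviations from the group means, same-numbered libraries correlated at -0.37 to 0.25. These values cannot tell whether the numbers pair the samples, and the labels do not state a pairing. Low reads limit Mvk, Nsdhl, Abcg1 and Nr1h3 in the MC38 PBS libraries.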
